A study of Arabidopsis thaliana with 12 samples.

Results

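COR27 (AT5G42900) and AT4G33980, known as COR28, are a pair of related cold-regulated genes of Arabidopsis thaliana that are tied to the circadian clock. On the Affymetrix ATH1 array each gene had 1 named probe set, and this pair, 2 of 22810 probe sets, was chosen by name. The series, titled for membrane fluidity and low temperature perception, holds 12 arrays, 1 in the cold and 1 at ambient temperature for each of 6 lines.

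The mutant lines were fab1 and fad2, both labelled as EMS mutants, and the triple mutant fad3/7/8, which was made by crossing and carries the aequorin calcium reporter per its titles. The line 35S-FAD3 overexpresses the linoleate desaturase FAD3 from the viral 35S promoter. Its titles name 35S-FAD3, while its genotype label reads 35S::apoaequorin. Its values rest on the titles. The control lines were Col-aeq, a Columbia line with aequorin, and Col-0. FAB1 elongates palmitate, FAD2 desaturates oleate in the endoplasmic reticulum, and FAD3, FAD7 and FAD8 desaturate linoleate, so these lines differ in how unsaturated their membrane lipids are. No probe set was named for FAB1, FAD2, FAD3, FAD7 or FAD8 in the annotation used, and the genotypes were not checked on the arrays. All arrays were of whole seedlings at growth stage 1.02. They were grown on MS medium at 20 °C under days of 16 h light and nights of 8 h, once sown seed had spent 4 days in the fridge. How cold and how long the treatment was, and at what time of day seedlings were harvested, is not given in the sources used.

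COR27 and COR28 encode small plant proteins without a known DNA-binding domain. Their transcripts rise in low temperature and in blue light and cycle over the day with a peak late in the day. The proteins repress the evening clock genes TOC1 and PRR5, promote flowering and lower freezing tolerance, and the morning factor CCA1 binds and represses both genes.

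All arrays are labelled as replicate 1, so no condition had a second array, and nothing in the labels gives the number of seedlings or growths behind one. The values are MAS5 signals on a linear scale, with a median per array of 34.5 to 39.3. One array stood apart. On the Col-aeq ambient array the control probe sets for actin had a 3' to 5' ratio of 23.3, and the other 11 arrays had 6.22 to 10.1. The GAPDH ratio was 3.54 there and 1.11 to 1.66 elsewhere. Green tissue and root were both present on every array. The Rubisco activase gene RCA had signals of 3044 to 3646 in the cold and 3464 to 3916 at ambient temperature, and the root beta-glucosidase gene PYK10 had 2230 to 2615 in the cold and 2286 to 2816 at ambient temperature. In the cold the green tissue gene LHCB4.1 fell by 0.31 on the log2 scale (limma adjusted p = 0.00269), while RCA (−0.10, adjusted p = 0.171), PYK10 (−0.09, 0.292) and the root peroxidase gene PRX57 (−0.15, 0.423) did not pass.

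Both genes were high on every cold array and low on every ambient array. COR27 signals in the cold were 226.6 in fab1, 263.7 in fad2, 426.7 in fad3/7/8, 288.3 in 35S-FAD3, 430.1 in Col-aeq and 155.5 in Col-0. At ambient temperature they were 2.9 in fab1, 6.6 in fad2, 31.1 in fad3/7/8, 1.4 in 35S-FAD3, 19.9 in Col-aeq and 11.7 in Col-0. No cold array came down to the highest ambient one, which was fad3/7/8.

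AT4G33980 signals in the cold were 242.6 in fab1, 320.1 in fad2, 515.5 in fad3/7/8, 278.3 in 35S-FAD3, 461.5 in Col-aeq and 146.8 in Col-0. At ambient temperature they were 10.8 in fab1, 7.2 in fad2, 51.3 in fad3/7/8, 7.4 in 35S-FAD3, 33.8 in Col-aeq and 4.4 in Col-0. The groups did not overlap here either. Of 13648 probe sets tested, 5.60% had every cold array above every ambient array.

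**Figure D1:**
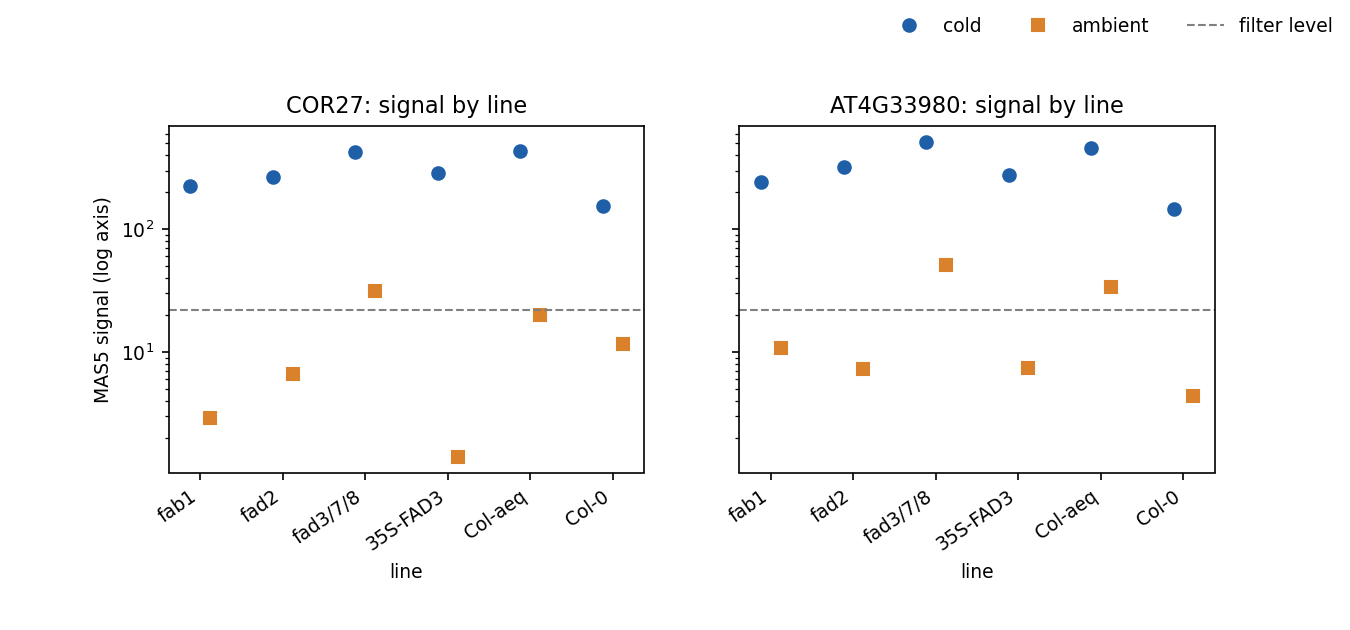
MAS5 signal (log axis) of COR27 (left) and AT4G33980 (right) by line, with circles for the cold array and squares for the ambient array of each line and a dashed line at the filter level of 21.9. All cold signals lie at 146.8 or more, and only fad3/7/8 (both genes) and Col-aeq (AT4G33980) have an ambient signal above the dashed line.

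Over the 6 lines, COR27 rose by 4.81 on the log2 scale (SE 0.337, 95% interval 4.07 to 5.56, limma adjusted p = 1.65e-06) and AT4G33980 by 4.35 (SE 0.219, 3.86 to 4.83, limma adjusted p = 1.4e-07). Both rose in 6 of 6 lines. Without Col-aeq the rises were 4.91 and 4.47. Of all probe sets tested, 33.3% passed and 15.0% rose. Differences are of log2(signal + 1.6), which understates the change of low signals, and the p-values rest on how much the lines varied in their cold change. In bulk seedlings, fewer cells that express a gene and less RNA per cell cannot be told apart.

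The size of the rise rests on ambient signals that were hardly measured. Of the 6 ambient arrays, 5 for COR27 and 4 for AT4G33980 lay under 21.9, the signal that a probe set's mean over 12 arrays had to reach to be tested. Both genes passed that filter only through their cold arrays. Where every signal under 21.9 was set to 21.9, the rises were 3.60 for COR27 (limma adjusted p = 2.13e-08) and 3.47 for AT4G33980 (limma adjusted p = 1.14e-08). Against that floor the cold signal was at least 7.09-fold (Col-0) to 19.6-fold (Col-aeq) higher for COR27, and at least 6.70-fold (Col-0) to 14.6-fold (fad2) higher for AT4G33980.

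The order of the lines by rise rests on low ambient signals. On the scale of log2(signal + 1.6), the rise of COR27 was 5.66 in fab1, 5.02 in fad2, 3.71 in fad3/7/8, 6.59 in 35S-FAD3, 4.33 in Col-aeq and 3.56 in Col-0. The value in 35S-FAD3 has an ambient signal of 1.4 beneath it. The rise of AT4G33980 was 4.30 in fab1, 5.19 in fad2, 3.29 in fad3/7/8, 4.96 in 35S-FAD3, 3.71 in Col-aeq and 4.63 in Col-0. With the floor, the COR27 rise in 35S-FAD3 was at least 13.2-fold. The floor gives 5 of the 6 COR27 and 4 of the 6 AT4G33980 ambient signals the same value. For these lines the floored rise is a lower bound that follows the cold signal, so it cannot rank the lines by rise.

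**Figure D2:**
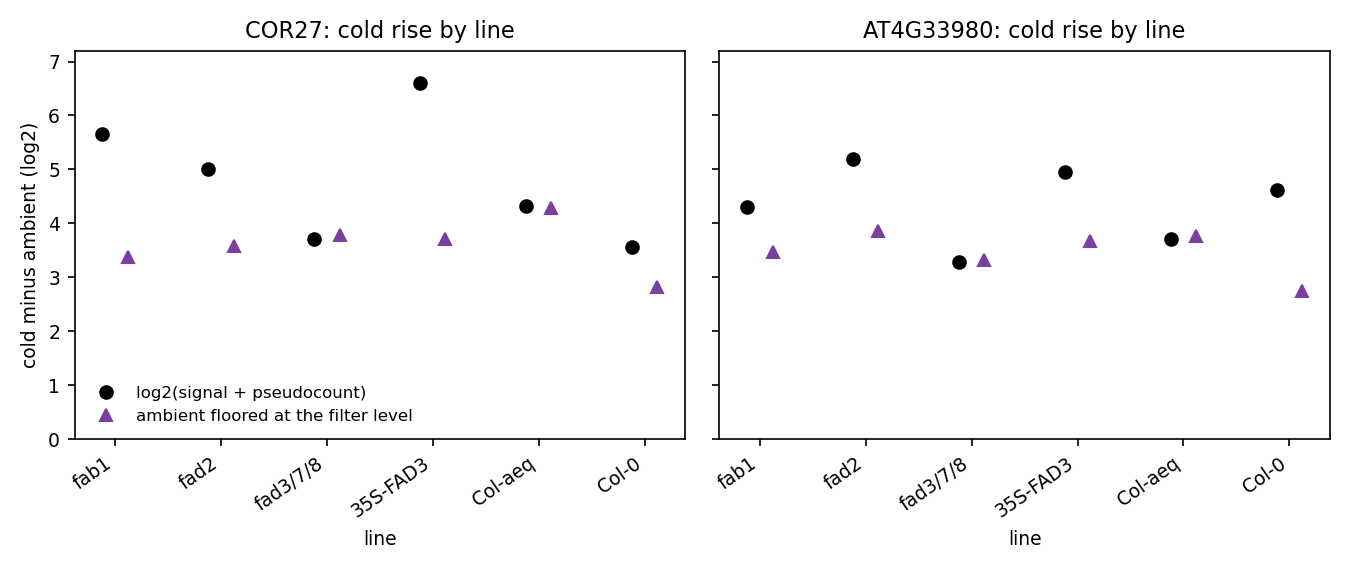
Cold minus ambient on the log2 scale by line for COR27 (left) and AT4G33980 (right), with circles for log2(signal + 1.6) and triangles for the ratio of the cold signal to the ambient signal, the latter set to 21.9 where it was lower. The COR27 circle of 35S-FAD3 stands at 6.59 and its triangle stands among those of the other lines. The Col-0 triangles are the lowest for both genes. Where the ambient signal was set to 21.9, a triangle is a lower bound that follows the cold signal.

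The rises of the pair were not told apart over the lines. The rise of COR27 minus that of AT4G33980 was 1.37 in fab1, −0.18 in fad2, 0.42 in fad3/7/8, 1.64 in 35S-FAD3, 0.62 in Col-aeq and −1.07 in Col-0. Its mean of 0.47 ± 0.996 (SD, n = 6 lines) was smaller than its spread (exact two-sided sign-flip permutation test, p = 0.3125; the smallest p that 6 lines allow is 0.0312). It was positive in 4 of 6 lines. The mean was 0.12 with low signals set to the floor, and 0.23 (without 35S-FAD3) to 0.77 (without Col-0) with a line left out.

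The cold levels themselves held no low signals, since no cold signal was under the filter level. Col-0 had the lowest cold signal of both genes, and fad3/7/8 and Col-aeq had the highest. COR27 was 2.77 times and AT4G33980 3.51 times as high in the highest line as in the lowest. These spans of 1.46 and 1.80 on the log2 scale exceed those of 97.7% and 99.0% of all probe sets tested, whose median span in the cold was 0.52.

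The order of the lines in the cold could not be settled at each step. With no second array per condition, the yardstick was the residual SD of limma's fit of line and temperature, which for a difference of 2 arrays was 0.826 for COR27 and 0.535 for AT4G33980. This SD draws on both temperatures, low ambient signals included, and does not measure the error of cold arrays alone. No step between neighbouring lines in the cold went beyond 2 SD. For COR27 none could, since 2 SD exceed its whole cold span of 1.46. For COR27 the order was Col-aeq, fad3/7/8, 35S-FAD3, fad2, fab1 and Col-0, with steps of 0.011 to 0.56. For AT4G33980 it was fad3/7/8, Col-aeq, fad2, 35S-FAD3, fab1 and Col-0, with steps of 0.16 to 0.72, the largest being that of fab1 over Col-0.

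By Pearson's r, the cold levels of COR27 and AT4G33980 went together across the lines, while their rank order did not pass after adjustment. Across the 6 cold arrays, their log2 signals correlated at Pearson's r = 0.981 (exact permutation p = 0.0056, 0.0278 adjusted over 5 relations) and Spearman's rho = 0.886 (exact permutation p = 0.0333, adjusted 0.167). Without Col-aeq and Col-0, the lines farthest from the median, r was 0.951 over 4 lines. Both genes were read from the same arrays and share each array's error.

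**Figure D3:**
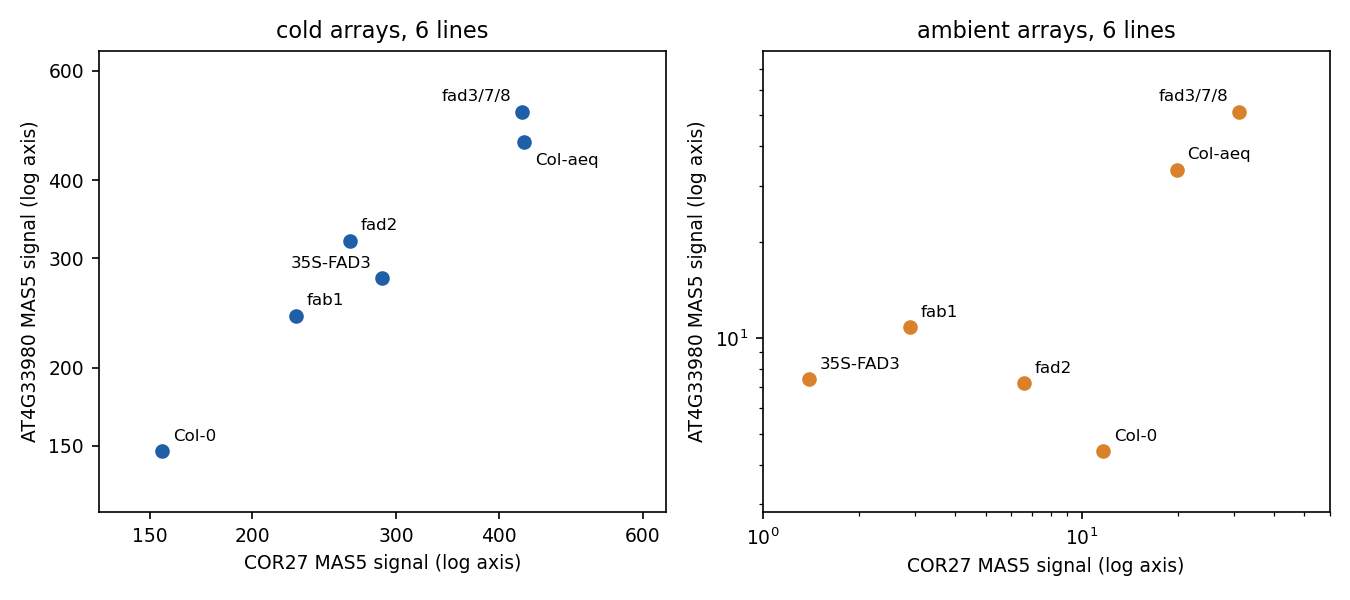
AT4G33980 signal against COR27 signal (log axes) for the 6 lines, on the cold arrays (left) and the ambient arrays (right), with 1 point per line. In the cold the points run from Col-0 (155.5 and 146.8) to fad3/7/8 and Col-aeq. At ambient temperature fad3/7/8 and Col-aeq are highest for both genes. Their gap to the other 4 lines is 1.51 on the log2 scale for AT4G33980 and 0.69 for COR27.

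At ambient temperature the highest lines were again fad3/7/8 and Col-aeq, those titled with aequorin, for both genes. Below them the genes differed in order, with Col-0, fad2, fab1 and 35S-FAD3 for COR27 and fab1, 35S-FAD3, fad2 and Col-0 for AT4G33980. Of the 10 steps between neighbouring lines, 1 exceeded 2 SD, that of Col-aeq over fab1 for AT4G33980 (1.51 against an SD of 0.535). The upper end of that step is the array with odd control ratios and its lower end, a signal of 10.8, lies under the filter level; their part in the step was not tested. The ambient spans were 3.45 for COR27 and 3.14 for AT4G33980 on the log2 scale. Probe sets with a median ambient signal under 21.9 had a median span of 1.26, against 0.667 for those at or over it, and 0.333% and 0.666% of the low ones spanned at least as much as COR27 and AT4G33980.

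The ambient relation between the genes was weaker than in the cold by value and did not pass (r = 0.697, exact permutation p = 0.144, adjusted 0.241; rho = 0.486, exact permutation p = 0.356, adjusted 0.419). Without fad3/7/8 and 35S-FAD3, r was 0.434 over 4 lines. Their cold changes correlated at r = 0.541 (exact permutation p = 0.263, adjusted 0.328; rho = 0.429, exact permutation p = 0.419, adjusted 0.419), and at r = 0.711 without 35S-FAD3 and Col-0. A line's ambient level of AT4G33980 went with its cold level at r = 0.886 (exact permutation p = 0.0208, adjusted 0.0521; rho = 0.771, exact permutation p = 0.103, adjusted 0.257), and at r = 0.644 without fad3/7/8 and Col-aeq, so that relation rests in part on those lines. For COR27 it was r = 0.453 (exact permutation p = 0.385, adjusted 0.385; rho = 0.429, exact permutation p = 0.419, adjusted 0.419), and r = 0.412 without fad3/7/8 and 35S-FAD3.

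Over both temperatures, the lines differed in AT4G33980 (limma F = 12.0, adjusted p = 0.0264), where 4.1% of probe sets passed. For COR27 the same test gave F = 4.00 (adjusted p = 0.152). The AT4G33980 call was lost when 1 array of fab1, fad2, 35S-FAD3 or Col-0 was left out (adjusted p of 0.0539 to 0.0812), when the whole fad2 (0.09) or Col-0 (0.0737) line was, without the signal filter (0.0683) and without the intensity trend (0.0531). It held when Col-aeq, the line of the array with odd control ratios, was left out (limma adjusted p = 0.00754). The number of probe sets that passed also moved, from 559 to 2327 without Col-aeq and to 16 without fad2. Without fad2 the F of AT4G33980 was 17.9, above the 12.0 with all lines, although the call was lost. The adjusted p of this gene thus depends on the other probe sets as well.

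Against the mean of both control lines, no altered line passed for either gene. AT4G33980 stood 1.42 higher in fad3/7/8 on the log2 scale (SE 0.328, 95% interval 0.70 to 2.14, unadjusted p = 0.00121, limma adjusted p = 0.21), in a comparison where 0.0293% of probe sets passed. The control lines themselves lay far apart. AT4G33980 was 2.47 higher in fad3/7/8 than in Col-0 alone (limma adjusted p = 0.0256) and 0.37 higher than in Col-aeq alone (limma adjusted p = 0.693). By the titles, fad3/7/8 and Col-aeq carry aequorin, and Col-0 is not titled with it. Against Col-0, the reporter and the mutations therefore cannot be told apart. The mean of both control lines mixes lines with and without the reporter. Against Col-0 alone 73 probe sets passed, beside 4 against both control lines. With the whole Col-aeq line left out of the fit, which again leaves Col-0 as control, AT4G33980 passed at 2.47 (limma adjusted p = 0.00621). In that fit 691 probe sets passed. Without the Col-aeq cold array alone AT4G33980 was 1.23 higher in fad3/7/8 than in the controls. That fit leaves Col-aeq 1 array, so only the size is given.

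COR27 stood 0.83 higher in fad3/7/8 than in the control lines (SE 0.506, limma adjusted p = 0.52), at −1.05 in fab1 (SE 0.506, limma adjusted p = 0.801), at −0.51 in fad2 (SE 0.506, limma adjusted p = 0.57) and at −1.17 in 35S-FAD3 (SE 0.506, limma adjusted p = 0.385). With low signals set to the floor, these were 0.61 in fad3/7/8, −0.095 in fab1, 0.014 in fad2 and 0.078 in 35S-FAD3. AT4G33980 stood at −0.17 in fab1, −0.22 in fad2 and −0.30 in 35S-FAD3 (SE 0.328 each, limma adjusted p of 0.919, 0.727 and 0.725). Against Col-0 alone these were 0.88, 0.83 and 0.75, since Col-0 had the lowest AT4G33980 signal at either temperature. The share of probe sets that passed was 0.0147% in fab1, 9.44% in fad2 and 0.205% in 35S-FAD3.

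The cold rise was also compared between classes of lines. The 3 mutant lines rose by 0.85 more than the control lines for COR27 (SE 0.501, 95% interval −0.28 to 1.98, limma adjusted p = 0.686) and by 0.09 more for AT4G33980 (SE 0.492, −1.02 to 1.20, limma adjusted p = 0.97). For 35S-FAD3 against the control lines the difference was 2.65 for COR27 (SE 0.672, 1.14 to 4.16, unadjusted p = 0.00318, limma adjusted p = 0.9) and 0.79 for AT4G33980 (SE 0.66, −0.70 to 2.28, limma adjusted p = 0.906). In both comparisons limma called 0 probe sets (0.00%), beside 1027 and 676 at an unadjusted p under 0.05. With the floor, the COR27 difference was 0.0185 for the mutant lines and 0.16 for 35S-FAD3.

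Of 30 circadian clock genes listed, 2 had a named probe set, GI and RVE6, and both rose in the cold by limma's test (2 of 2, where 15.0% of all probe sets tested rose; median change 1.17, against −0.035 over all). CCA1, LHY, TOC1 and PRR5 had no named probe set in the annotation used here.

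GI encodes an evening-phased clock protein that also promotes flowering. Its signals in the cold were 431.5 in fab1, 543.7 in fad2, 647.3 in fad3/7/8, 486.0 in 35S-FAD3, 679.2 in Col-aeq and 471.8 in Col-0. At ambient temperature they were 242.6 in fab1, 244.6 in fad2, 398.2 in fad3/7/8, 233.8 in 35S-FAD3, 190.5 in Col-aeq and 202.3 in Col-0. GI rose by 1.13 (SE 0.127, limma adjusted p = 5.76e-05), and, like the pair, it was highest in fad3/7/8 at ambient temperature and in Col-aeq and fad3/7/8 in the cold. In Col-aeq at ambient temperature it was the lowest of the 6 lines, where the pair was second highest.

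RVE6 encodes a MYB-like clock factor of the family of RVE8, which activates evening genes. Its cold signals were 196.0 to 209.0 over the 6 lines and its ambient ones 43.9 to 115.9, with Col-aeq the lowest at ambient temperature. It rose by 1.21 (SE 0.151, limma adjusted p = 0.000118). The lines did not pass limma's F test for GI (adjusted p = 0.26) or RVE6 (0.379). Whether the lines stood at different clock times was not tested.

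A list of 16 further clock and day-length genes, added after the annotation was seen, had 3 tested members, of which 2 rose and 1 fell (median 0.58). CDF5, a repressor of flowering of the DOF family, rose by 1.34 (SE 0.129, limma adjusted p = 1.85e-05), and TIC, which acts in clock timing, rose by 0.58 (SE 0.144, limma adjusted p = 0.00984). XCT, a clock regulator in the nucleus, fell by 0.38 (SE 0.121, limma adjusted p = 0.0342), with signals of 24.9 to 47.1 in the cold and 39.8 to 55.7 at ambient temperature, which overlap. The XCT call was lost on leaving out any array of fab1, fad2, 35S-FAD3 or Col-0 (limma adjusted p of 0.0578 to 0.113), without the filter (0.0749) and without the line block (0.0644). Cold lowered 18.3% of all probe sets tested.

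COR27 and COR28 also act with the light regulators HY5 and COP1. Of 25 genes listed for light signalling, 1 was tested, HYH, the close relative of the light-response factor HY5. It rose by 1.60 (SE 0.167, limma adjusted p = 3.35e-05). Its lines ran in another order than the pair's. Cold signals were highest in Col-0 (488.8) and lowest in fad2 (256.9), and ambient signals were highest in Col-0 (205.6) and lowest in fad3/7/8 (69.5). HYH was lower in fad2 than in the control lines (−1.06, limma adjusted p = 0.0278), a comparison in which 9.44% of probe sets passed.

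The other cold genes rose in the same seedlings. Of 13 other COR genes listed, 4 were tested and 4 rose (median 2.39, against −0.035 over all probe sets tested, of which 15.0% rose), namely COR15A and COR15B, chloroplast proteins that protect membranes in freezing, and the dehydrins COR47 and LTI30. Their rises were 2.51 (SE 0.167), 2.79 (SE 0.235), 1.40 (SE 0.0841) and 2.26 (SE 0.0722) for COR15A, COR15B, COR47 and LTI30. Of 16 regulators of cold signalling, the zinc-finger repressor STZ was tested and rose by 3.95 (SE 0.12). No gene of the flowering list (0 of 4) had a named probe set. Cold signals of these genes spanned less between lines than those of the pair. The highest line was 1.49 times the lowest for COR15A, 1.21 times for COR15B, 1.20 times for COR47, 1.27 times for LTI30 and 1.38 times for STZ. A wide cold span was not particular to the pair. Of the other listed genes, CDF5 (2.78 times) and PRX57 (3.68 times) spanned at least as much as COR27, and the rest spanned less. Col-0, lowest for COR27 and AT4G33980, ranked 3 of 6 for COR15A, COR47 and LTI30 and 4 of 6 for COR15B and STZ. Levels were not set against one another between genes.

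**Figure D4:**
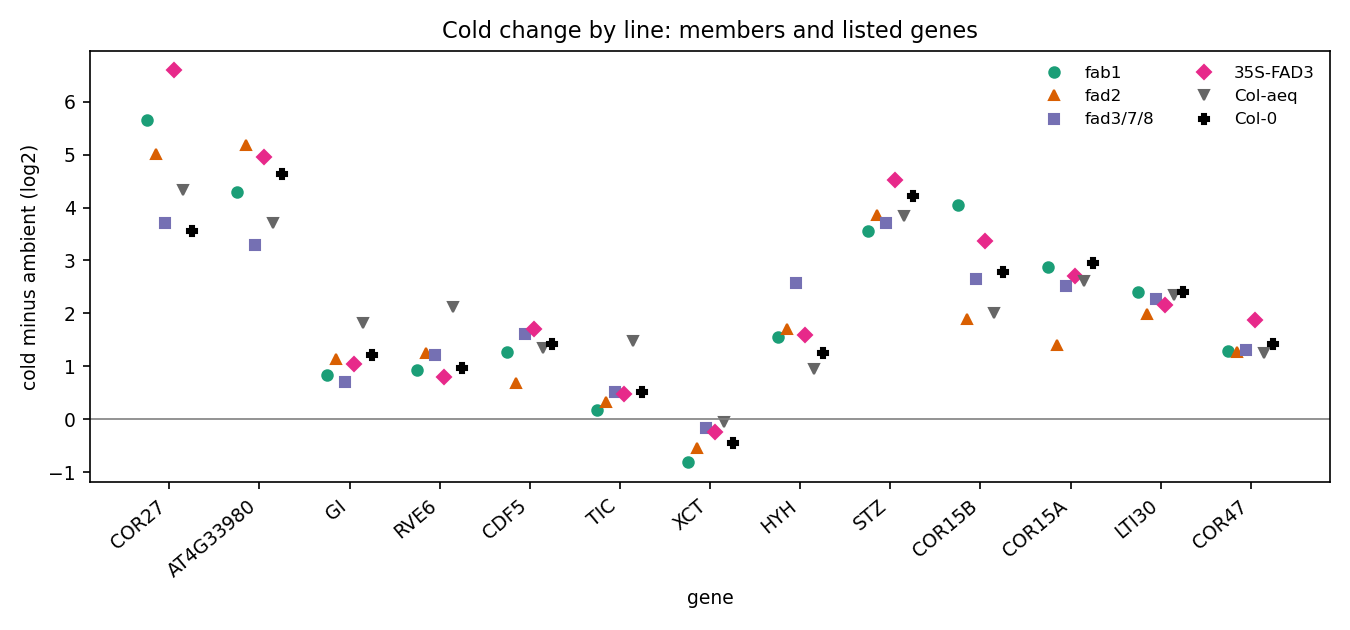
Cold minus ambient, as log2(signal + 1.6), for COR27, AT4G33980 and 11 listed genes, with 1 marker per line. COR27 spreads from 3.56 (Col-0) to 6.59 (35S-FAD3) and AT4G33980 from 3.29 to 5.19, while XCT lies below 0 in all 6 lines.

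The genes whose pattern was most like the pair's were taken by Pearson's r of log2 signals over the 12 arrays, among 7286 tested probe sets of single genes. For COR27 they were AT3G51660 (r = 0.976), the dehydrin gene COR47 (0.972), AT4G27652 (0.972), AT5G50450 (0.971) and AT1G70420 (0.968), and AT4G33980 came 7th by rank (0.964). For AT4G33980 they were AT5G62360 (0.988), of the invertase and pectin methylesterase inhibitors, AT1G07050 (0.985), of the CCT motif family, AT3G55760 (0.981), AT1G11210 (0.980) and AT5G50450 (0.976). COR27 came 13th by rank there. Temperature alone makes such values high: 75 and 74 genes had an r over 0.9 with COR27 and AT4G33980.

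Likeness of line pattern was also taken after the mean of each temperature was subtracted. AT4G33980 was then most like AT4G33670 (r = 0.943), which encodes an L-galactose dehydrogenase of ascorbate synthesis, AT1G56300 (0.935), of the DnaJ chaperones, AT2G46490 (0.927), AT5G62360 (0.924) and CHL (0.921), the chloroplastic lipocalin. In the cold AT4G33670 (−0.54, limma adjusted p = 0.000347) and AT2G46490 (−1.15, limma adjusted p = 4.13e-06) fell, while AT5G62360 rose by 3.28 (limma adjusted p = 1.18e-06). AT1G56300, with signals well above the filter level, had cold signals of 323.9 in fab1, 382.7 in fad2, 511.0 in fad3/7/8, 445.1 in 35S-FAD3, 550.5 in Col-aeq and 276.4 in Col-0. Its ambient signals were 183.5 in fab1, 198.6 in fad2, 455.6 in fad3/7/8, 219.7 in 35S-FAD3, 440.1 in Col-aeq and 101.9 in Col-0. As for AT4G33980, fad3/7/8 and Col-aeq were highest and Col-0 lowest at both temperatures, while the order of the other lines differed. AT1G56300 rose by 0.78 in the cold (limma adjusted p = 0.00187, and 0.0776 without the line block).

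CHL did not pass for cold (0.02, limma adjusted p = 0.905) and had the same lines at its ends. Its ambient signals were 468.9 in fad3/7/8 and 402.4 in Col-aeq, against 185.6 in Col-0, and its cold signals were 347.1 in fad3/7/8 and 378.3 in Col-aeq, against 255.7 in Col-0. These genes were chosen by likeness, so their match is a description.

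COR27 was most like AT4G33985 once the temperature means were subtracted (r = 0.877), followed by AT5G66090 (0.833), MAG2 (0.820), a subunit of the tether for transport between endoplasmic reticulum and Golgi, AT3G17250 (0.815) and AT3G51660 (0.814). AT4G33980 itself stood at r = 0.746, 25th by rank, while COR27 was 117th by rank for AT4G33980. AT4G33985 is the next protein-coding gene after AT4G33980 on its chromosome in the RefSeq table, and the gene models do not overlap. Its r with AT4G33980 was 0.835, 46th by rank. With low signals set to the floor its r with COR27 was 0.731, and 0 of these 5 genes stayed among the top 5 for COR27.

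AT4G33985 had cold signals of 39.1 in fab1, 58.7 in fad2, 68.1 in fad3/7/8, 56.4 in 35S-FAD3, 72.3 in Col-aeq and 39.9 in Col-0. Its ambient signals were 8.9 in fab1, 17.5 in fad2, 35.5 in fad3/7/8, 12.2 in 35S-FAD3, 38.7 in Col-aeq and 14.2 in Col-0. Within every line the cold array was the higher, and fad3/7/8 and Col-aeq led at both temperatures. It rose by 1.48 (SE 0.175, 2.78-fold, limma adjusted p = 8.32e-05), and its lines did not pass limma's F test (adjusted p = 0.0655). Whether transcripts that run on from AT4G33980 reach this probe set was not tested.

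**Figure D5:**
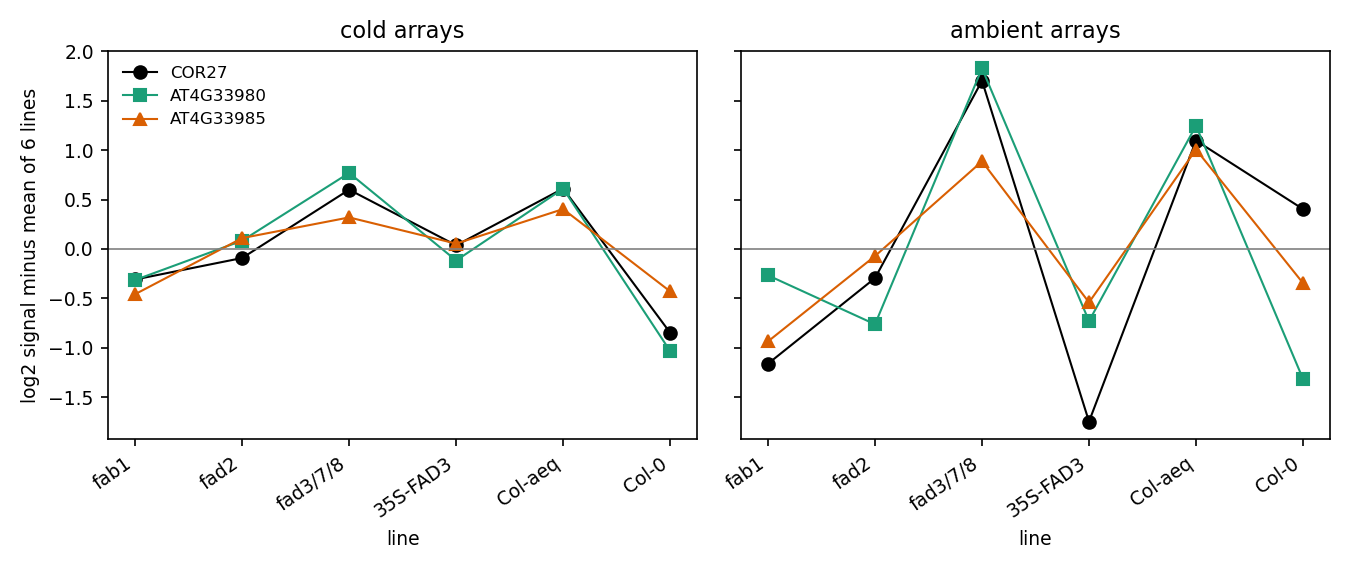
Log2(signal + 1.6) minus the mean of the 6 lines at the same temperature, for COR27, AT4G33980 and its chromosomal neighbour AT4G33985, on cold arrays (left) and ambient arrays (right). All 3 genes peak in fad3/7/8 and Col-aeq at both temperatures; the ambient COR27 point of 35S-FAD3 comes from a signal of 1.4.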

How the data were processed

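RNA was labelled with biotin for ATH1 arrays, per the labels' protocols. The authors deposited MAS5 signals, an intensity on a linear scale. The submitters' processing notes name MAS5 and GCOS, with no version in the sources used here. Every array had a mean of 100.0 after trimming 2% at each end, so none was rescaled, and 0 pairs held identical values.

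Log2(signal + 1.6) was used throughout; the pseudocount is the 10th percentile of all signals. Control probe sets (64) were left out, and 13648 others whose mean log2 value reached the 40th percentile, a signal of 21.9, were tested. The model of line plus temperature was fitted with limma 3.58.1 (R 4.3.3), an intensity trend and Benjamini-Hochberg adjustment at 0.05. Class comparisons used the 6 within-line differences. Exact permutation tests ran through every ordering or sign change, with NumPy 2.4.6 under Python 3.11.15. The code was checked on simulated data. Alternatives were other scalings, pseudocounts, floors and filters, no trend, no line block, either control line alone, and each array or line left out.

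The members and lists were chosen with earlier results of these data known. The 7 lists held 94 genes, of which 12 had a named probe set, and 1 list was added after the annotation was seen. Names came from GEO's platform table (13513 probe sets of 1 gene, 503 of several) and RefSeq TAIR10.1 (13436 matched). The text names the pair, every tested list gene, the 5 genes most like each member by each measure, and chromosomal neighbours. Sequence features were not analysed here.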

Additional observations from a re-analysis of the deposited data

Results flagged for a closer look

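COR27 and AT4G33980 gave no outlying line at either temperature or in their cold change. Among 51 sets of 6 lines (17 genes, each in the cold, at ambient temperature and in cold change), 9 had a line whose gap to its nearest neighbour, divided by the whole range, exceeded Dixon's 95% critical value. Chance gives about 1 in 20. Of the clock genes, GI was high in fad3/7/8 at ambient temperature (gap ratio 0.661), the line in which the pair was highest too. RVE6 was low in Col-aeq at ambient temperature (0.67) and had its largest cold change there (0.646). TIC showed the same in Col-aeq at ambient temperature (0.687) and in cold change (0.737); the Col-aeq ambient array is the one whose control probe sets stood apart, and its part in these values was not tested. COR15A had its smallest cold change in fad2 (0.723) and COR47 its largest in 35S-FAD3 (0.71). LHCB4.1, of the photosystem II antenna, had its lowest cold change in fad2 (0.665), and AT5G17820, the root peroxidase gene PRX57, was high in fad2 at ambient temperature (0.63).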

How the results depend on the processing

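The cold rises passed under every alternative run, with values of 3.60 to 4.83 (COR27) and 3.47 to 4.36 (AT4G33980), and of 4.46 to 5.06 and 4.18 to 4.56 when an array or line was left out. COR27 did not reach the filter at the 60th percentile, so it has no value there. Line differences were less settled, and the cause was not tested. With low signals floored, COR27 stood at 0.014 in fad2 and 0.078 in 35S-FAD3. Against Col-0 alone COR27 stood at 0.029 in fad2, and AT4G33980 at 0.88 in fab1, 0.83 in fad2, 0.75 in 35S-FAD3 and 2.47 in fad3/7/8, the last passing. Leaving out an array or line gave, for COR27, −1.59 to −0.51 in fab1, −1.05 to 0.029 in fad2, 0.17 to 1.495 in fad3/7/8, −2.24 to −0.10 in 35S-FAD3 and 0.42 to 1.40 for the cold change of mutant against control lines, and for AT4G33980 −1.22 to 0.88 in fab1, −1.27 to 0.83 in fad2, 0.37 to 2.47 in fad3/7/8, −1.35 to 0.75 in 35S-FAD3 and −0.37 to 0.58 for the cold change of mutant against control lines. The 2.47 of AT4G33980 in fad3/7/8 with the Col-aeq line left out passed (limma adjusted p = 0.00621). The F statistic of AT4G33980 was 10.8 without the filter and 11.0 without the trend, both no longer passing, and 8.60 to 18.2 with an array or line left out. The relation of ambient to cold AT4G33980 passed under median centring (r = 0.893).

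Probe sets that passed numbered 1 (Col-0 alone) and 5 (Col-aeq alone) for fab1; 793 (no filter) and 669 (Col-0 alone) for fad2; 2 (no filter), 2 (no trend) and 73 (Col-0 alone) for fad3/7/8; 16 (no filter), 18 (60th percentile filter) and 7 (Col-aeq alone) for 35S-FAD3; and 144 (no filter) and 201 (no trend) for the F test. With an array or line left out they numbered 1 to 745 for fab1, 53 to 3391 for fad2, 0 to 1810 for fad3/7/8, 3 to 1679 for 35S-FAD3, 16 to 4534 for the F test, and 0 to 538 (mutant lines) and 0 to 207 (35S-FAD3) for the class comparisons. The cold change of CHL was −0.068 to 0.1105 there. Of the 5 genes most like each member after subtraction of temperature means, those still among the top 5 numbered, for COR27, 3 with quantile normalization, 3 with median centring, 1 with the larger pseudocount and 0 with the floor, and for AT4G33980 2, 4, 1 and 0 in the same order. Arrays were paired by line in the fit; 3403 probe sets passed for cold without the line block, against 4538 with it. By replicate number, no paired analysis was possible because all arrays carry number 1.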

Other observations

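On the other side of AT4G33980, the gene AT4G33960, which lies 2 protein-coding genes away, changed by −1.33 on the log2 scale in the cold (SE 0.105, limma adjusted p = 4.13e-06), with signals of 62.6 to 112.2 in the cold and 157.7 to 366.8 at ambient temperature. Within the closest 2 genes on either side of COR27, no probe set with a single named gene was tested.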
